A study of Saccharomyces cerevisiae with 10 samples.

Results

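Yeast held 633 short RNA stretches called protein-bound in both glucose and nitrogen starvation, with none called less than 20 nt away in log phase. They were chosen by position alone: each was a cluster of the glucose starvation list that shared at least 1 nt on the same strand with a cluster of the nitrogen starvation list and lay at least 20 nt from every same-strand cluster of the log-phase polyA and light total RNA lists. A cluster is an interval that the study's authors called as protein-bound. The 633 sites were 1.90% of the 33345 glucose starvation clusters, 3.00% of the 21108 glucose clusters that overlapped a nitrogen cluster, and a small part of the 185005 clusters of the series. Overlap and distance between lists are therefore a description of the choice, and no test is made on them.

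The clusters came from gPAR-CLIP, a transcriptome-wide crosslinking method in which cells take up 4-thiouracil, 365 nm light joins the labelled RNA to any protein in contact with it, and the RNA is recovered through its biotinylated proteins on streptavidin. Every group used Saccharomyces cerevisiae strain BY4742, WT, with the deletions his3-delta-1 and leu2-delta-0 and also lys2-delta-0 and ura3-delta-0. Cells were grown at 30°C in synthetic defined (SD) medium with 200 µM 4-thiouracil and irradiated 4 times at 150 mJ/cm2. Starved cells were pelleted, rinsed in water and kept for 2 h in SD lacking glucose or lacking nitrogen; log-phase cells stayed in SD. The 3 polyA groups passed oligo(dT) selection after the light part of a sucrose gradient was collected, and the light total RNA group was log-phase RNA of the same fraction.

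Each group had 2 replicates, and 1 list pooled both. The lists held 61035 clusters for log-phase polyA RNA, 33345 for glucose starvation, 38936 for nitrogen starvation and 51574 for light total RNA, with median widths of 10, 11, 11 and 13 nt. A further list of total RNA from the heavy part of the gradient held 115 clusters, and 0 of the 633 sites overlapped one. The lists carry no read depth, so a site is either present or absent, and with 1 list per condition no spread between replicates and no p-value can be given. Intervals below are 95% Wilson intervals of shares and cover counting error only. A cluster needs both bound protein and enough RNA, and in these lists a change in protein occupancy, in RNA per cell or in the number of cells cannot be told apart.

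Yeast that loses glucose stops most translation initiation and moves many mRNAs out of polysomes into particles with decay factors and other RNA-binding proteins. Starvation for carbon or nitrogen also switches on genes for alternative carbon sources, respiration, recycling of its own contents and, in diploids, meiosis. RNA-binding proteins commonly contact the untranslated ends of mRNAs, where short motifs direct stability, localization and 3′ end formation. Many Puf-family and poly(A)-signal-binding factors read U- and A-rich elements there.

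The sequences that carried the sites are shown mainly for those with the longest stretch shared by the glucose and nitrogen clusters. Each is written 5′ to 3′ on the strand of the RNA as DNA letters of build R64, spans the glucose and nitrogen clusters together or up to 30 nt of them, and has the shared stretch in capitals. In coding sequence they came from PIN3, which encodes an SH3-domain protein linked to prion formation, AZF1, a zinc-finger transcription factor, AIM7, a regulator of branched actin, and ASG1, a zinc cluster protein. A site of CPS1, the vacuolar carboxypeptidase S, is added as that of a gene with more than 1 site.
PIN3, chrXVI:835067-835095, plus strand: cTCCTCCTCCCCAACAACAACAACAACaa
AZF1, chrXV:535157-535186, plus strand: CAATAACAATAACAACAACAACAACaacaa
AIM7, chrIV:578890-578915, plus strand: tGCATATCCAACAACAACAAAAGATG
ASG1, chrIX:105306-105335, plus strand: gtaataATAATCACAACAACAACAACAACG
CPS1, chrX:98305-98322, plus strand: ACTATGATCCAGAAACAG
The shared stretch measured 26 nt in PIN3, 25 nt in AZF1 and AIM7, 24 nt in ASG1 and 18 nt in CPS1, where the glucose and nitrogen clusters had the same ends. The first 4 of these hold a repeat of CAA. A site in the coding sequence of SVL3, with 20 shared nt and the same ends in both starvations, also exceeded that of CPS1 and held no CAACAA.

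Downstream of the stop codon the longest shared stretches lay in AOS1, a subunit of the SUMO-activating enzyme, APE1, the vacuolar aminopeptidase that travels by the cytoplasm-to-vacuole pathway, and SEC22, a SNARE of traffic between the endoplasmic reticulum and the Golgi. Upstream of start codons they lay in YPL277C, of unknown function, TUS1, an activator of the Rho1 GTPase, and MRPL4, a protein of the mitochondrial ribosome. One of the longest antisense sites lay opposite CAT8, the activator of gluconeogenic genes, and another opposite BUD7.
AOS1 3′ flank, chrXVI:897087-897114, plus strand: tcATACACAATAATAATAATAAtaataa
APE1 3′ flank, chrXI:246032-246051, minus strand: AAAAATGTATAAAAAAAAAa
SEC22 3′ flank, chrXII:680859-680886, plus strand: tcCCACATCACAAATCCCGAtcaatttg
YPL277C 5′ flank, chrXVI:16928-16950, minus strand: acagAAAAAAAAAAAAAAATTCT
TUS1 5′ flank, chrXII:982848-982870, plus strand: AATATAAACATTAAAAcaaaaaa
MRPL4 5′ flank, chrXII:1014463-1014477, plus strand: AAAAAAATACCATaa
CAT8 antisense, chrXIII:828332-828349, plus strand: caTCTTTTTCATACTTTa
BUD7 antisense, chrXV:880513-880538, minus strand: cACTTAAACAATCAAGtaaacttatg
The 3′ flank stretches of AOS1, APE1 and SEC22 shared 20, 19 and 18 nt, and began 85, 87 and 17 nt after the stop codon. Apart from SEC22, these flanking sites consist mostly of A and T.

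Most sites shared less than these. The median stretch common to both starvations was 8 nt, in glucose clusters with a median width of 11 nt. In 121 sites, 19.1% (16.2 to 22.4), the shared stretch was under 5 nt, against 12.3% (11.9 to 12.8) of the 17952 glucose sites that overlapped both a nitrogen and a log-phase polyA cluster. These 17952 are called retained sites below. The shorter cluster lay wholly inside the longer one in 47.7% of the sites and 53.1% of the retained sites, and both ends were identical in 28 sites, or 4.42%, against 5.35%. Overlap was part of the choice, so these values are given as a description.

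The distance from log-phase clusters varied widely. Of the 21108 glucose clusters that overlapped a nitrogen cluster, 18930, or 89.7%, overlapped a log-phase polyA or light total RNA cluster, and 1309 lay 1 to 9 nt from one. Near the limit, 70 lay at 15 to 19 nt, just outside the choice, and 52 at 20 to 24 nt, just inside it. At 19 nt there were 15 sites and at 20 nt 12. Counts fell across the limit, from 166 at 10 to 14 nt to 48 at 25 to 29 nt, so the number of sites depends on it. The median distance of the 633 sites was 116 nt from log-phase polyA clusters, with quartiles of 47 and 298 nt, and 211 nt from light total RNA clusters. To the nearest cluster of either list the median was 75 nt, with quartiles of 39 and 230 nt. In 227 sites no log-phase polyA cluster lay within 200 nt, and in 173 neither log-phase list had one. The sites were scattered: at a spacing of 200 nt they formed 601 loci, of which 572 held 1 site, 26 held 2 and 3 held 3.

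Coding sequence held 283 of the 633 sites, 44.7% (40.9 to 48.6), and was the most frequent region. The 150 nt downstream of stop codons held 70 sites, 11.1% (8.85 to 13.7), and the 100 nt upstream of start codons 25, or 3.95% (2.69 to 5.77). A single site lay in an intron, that of RPS17B, a protein of the small ribosomal subunit. Between genes lay 167 sites, 26.4% (23.1 to 30.0), antisense to genes 39, or 6.16% (4.54 to 8.31), in the mitochondrial genome 44, or 6.95% (5.22 to 9.20), and in structural RNAs, Ty elements or pseudogenes 4.

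Retained sites were divided differently. Of them 37.5% lay in coding sequence, 26.5% in 3′ flanks, 6.24% in 5′ flanks, 20.7% between genes, 3.28% antisense to genes and 1.49% in the mitochondrial genome. The shares in 3′ and 5′ flanks were thus less than those of retained sites, and the coding, intergenic, antisense and mitochondrial shares greater, by more than the counting error. A second set for comparison consisted of the 1744 glucose clusters that lay the same 20 nt from log-phase and light total RNA clusters but overlapped no nitrogen cluster. Its shares were 49.9% (47.5 to 52.2) in coding sequence, 8.72% (7.48 to 10.1) in 3′ flanks, 25.6% between genes, 8.20% (7.00 to 9.58) antisense and 3.67% (2.88 to 4.66) in the mitochondrial genome. Between the 633 sites and these clusters of glucose starvation alone, only the interval of the mitochondrial share, among the shares of the 5 regions just given, did not overlap.

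**Figure D1:**
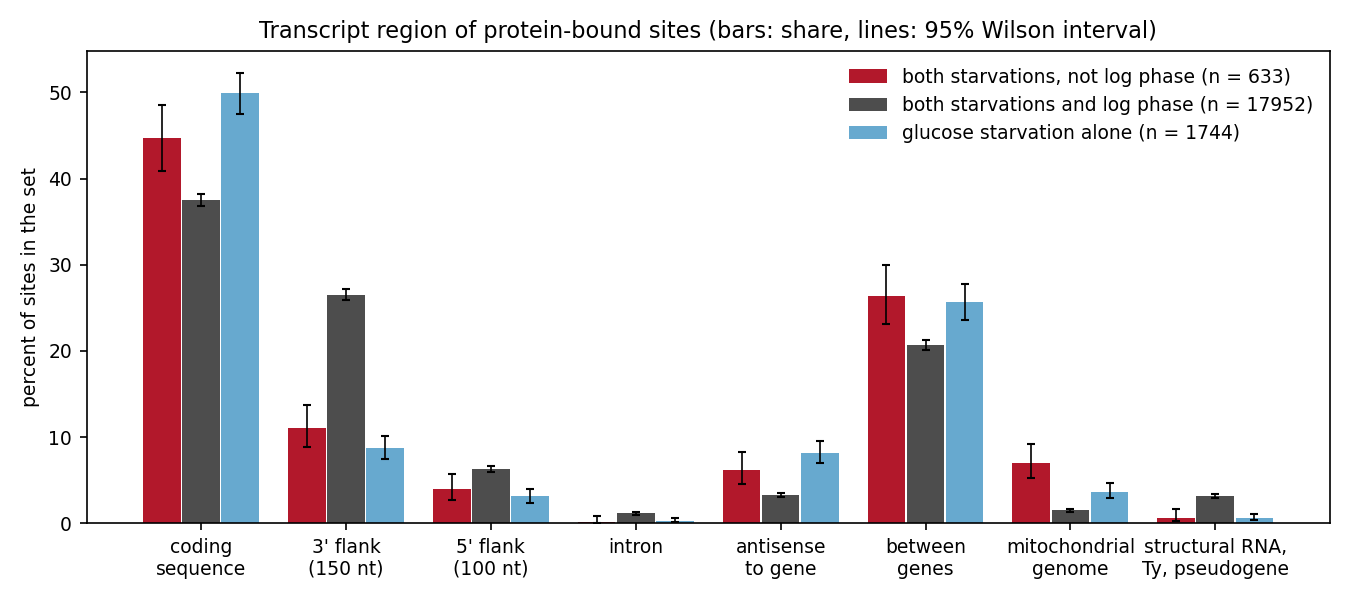
Percent of sites in each transcript region (y axis) for the 633 sites of both starvations absent in log phase, the 17952 sites of both starvations and log phase, and the 1744 clusters of glucose starvation alone; bars are shares and lines 95% Wilson intervals. The red 3′ flank bar, 11.1%, stands close to the blue one, 8.72%, and below the grey one, 26.5%, and the mitochondrial bar, 6.95%, is above both others.

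Expressed as a rate, 70 of the 5296 both-starvation sites in 3′ flanks were absent from log phase, 1.32%, against 283 of 8146 in coding sequence, 3.47%, and 3.00% in all regions. The rate was 1.94% in 5′ flanks, 0.448% in introns, 3.82% between genes, 5.42% antisense to genes and 11.8% (8.88 to 15.4) in the mitochondrial genome. The room for such a site also differed between regions. Counted at every 20th nt on both strands, 50.0% of 3′ flank positions lay at least 20 nt from every log-phase polyA and light total RNA cluster, 64.8% of 5′ flank, 73.7% of coding, 80.3% of mitochondrial, 85.9% of intergenic and 96.2% of antisense positions. The part of this room in the regional rates was not tested.

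**Figure D2:**
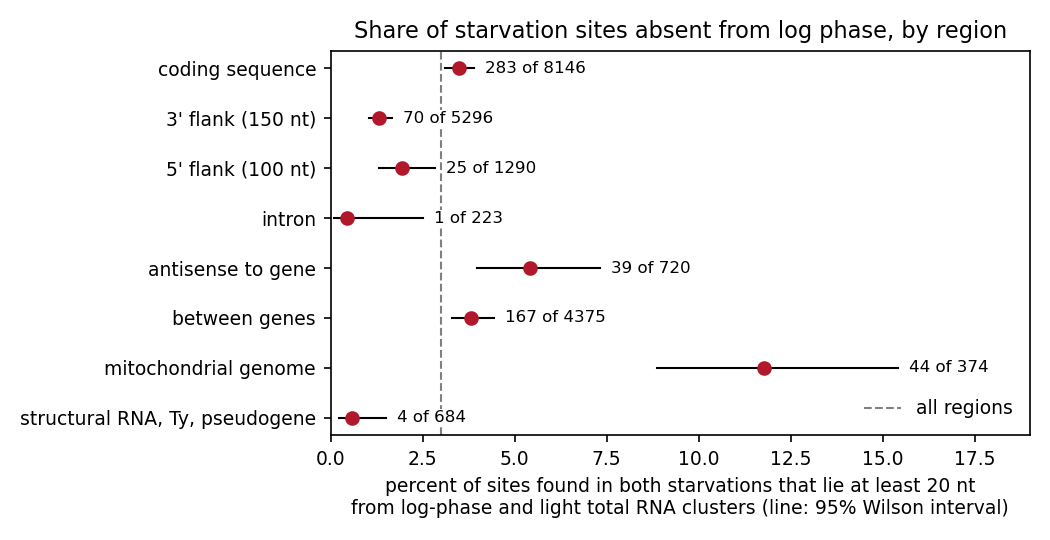
Percent of glucose clusters overlapping a nitrogen cluster that lay at least 20 nt from log-phase polyA and light total RNA clusters (x axis), by transcript region (y axis), with 95% Wilson intervals as lines, counts beside them and the rate of all regions, 3.00%, as a dashed line. The mitochondrial genome stands at 11.8%, 44 of 374 sites, and 3′ flanks at 1.32%.

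Within mRNAs the sites took up places much like those of retained sites. In 3′ flanks they began at a median of 59 nt after the stop codon, with quartiles of 39 and 93 nt, against 61 nt in retained sites. In 5′ flanks they ended a median of 45 nt before the start codon, against 39 nt. Of the coding sites, with the gene cut into 5 equal parts, the last part held 29.7% (24.7 to 35.2), against 27.0% of retained coding sites, and the middle part held the fewest, 15.2% (11.5 to 19.8), against 18.4%.

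The base composition was shifted towards A. The clusters of the 633 sites held 39.2% A, 37.7% T, 17.9% C and 5.18% G, those of retained sites 35.5% A and 41.5% T, and those of glucose starvation alone 35.2% A, 38.4% T and 9.15% G. No cluster in the 4 light lists held fewer than 2 T, the base whose 4-thiouracil form crosslinks. Exactly 2 T were present in 106 of the 633 sites, 16.7% (14.0 to 19.9), against 10.2% of retained sites and 14.7% (13.1 to 16.4) of clusters of glucose starvation alone. The base just before the cluster was G in 26.1% (22.8 to 29.6), against 19.8% and 26.9%.

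Motifs were counted on the strand of the RNA in the cluster with 10 nt on each side, and over the whole sets the comparison shares were weighted to the widths of the 633 sites; shares within a genome or region are unweighted. The hexamer AATAAA, the A-rich element placed upstream of many yeast poly(A) sites, was present in 69 sites, 10.9% (8.70 to 13.6), against 6.16% of retained sites and 5.94% of clusters of glucose starvation alone. In the mitochondrial genome, rich in A and T, 13 of 44 sites held it, 29.5%, close to the 27.0% of retained sites there. In the nuclear genome it was present in 9.51% (7.39 to 12.1), against 6.07% (5.72 to 6.43) and 4.94% (4.00 to 6.08). Within 3′ flanks 13 of 70 sites held it, 18.6% (11.2 to 29.2), against 8.09% (7.35 to 8.90) of retained sites and 11.8% (7.62 to 17.9) of clusters of glucose starvation alone, whose interval overlaps. Within coding sequence 7.07% (4.62 to 10.7) held it against 4.59% (4.11 to 5.11) and 3.91% (2.81 to 5.41), and all 3 intervals overlap. The run AAAAA, which can overlap AATAAA, was present in 18.2% of sites against 13.7% and 15.6%.

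TCTT, TGTA and TTTTT were less frequent than in retained sites by more than the counting error. These motifs were not counted by region. The part of the different regional shares in their frequencies was not tested. TCTT, the core read by the termination factor Nab3, was present in 20.2% of sites (17.3 to 23.5) against 29.0% of retained sites and 22.8% of clusters of glucose starvation alone. TGTA, the core of Puf-protein sites, was present in 6.32% (4.67 to 8.49) against 10.3% and 9.71%, and the full Puf3 element TGTANATA in 3 sites, 0.474%, against 1.16% and 0.895%. TTTTT was present in 17.2% (14.5 to 20.4) against 21.4% and 17.0%. TATATA, the efficiency element of 3′ ends, was present in 10.7% against 11.5% and 7.38%, and GTAG, the core read by Nrd1, in 2.21% against 2.72% and 3.52%; for these and for TGTANATA the interval of the 633 sites includes the share of retained sites. CAACAA was searched only after the longest sites had been seen. It was present in 21 sites, 3.32% (2.18 to 5.02), of which 16 were coding, against 2.28% and 2.75%; in the 6 sites that shared at least 20 nt it was present in 4. A motif match describes the letters in the window and does not show which protein was bound.

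**Figure D3:**
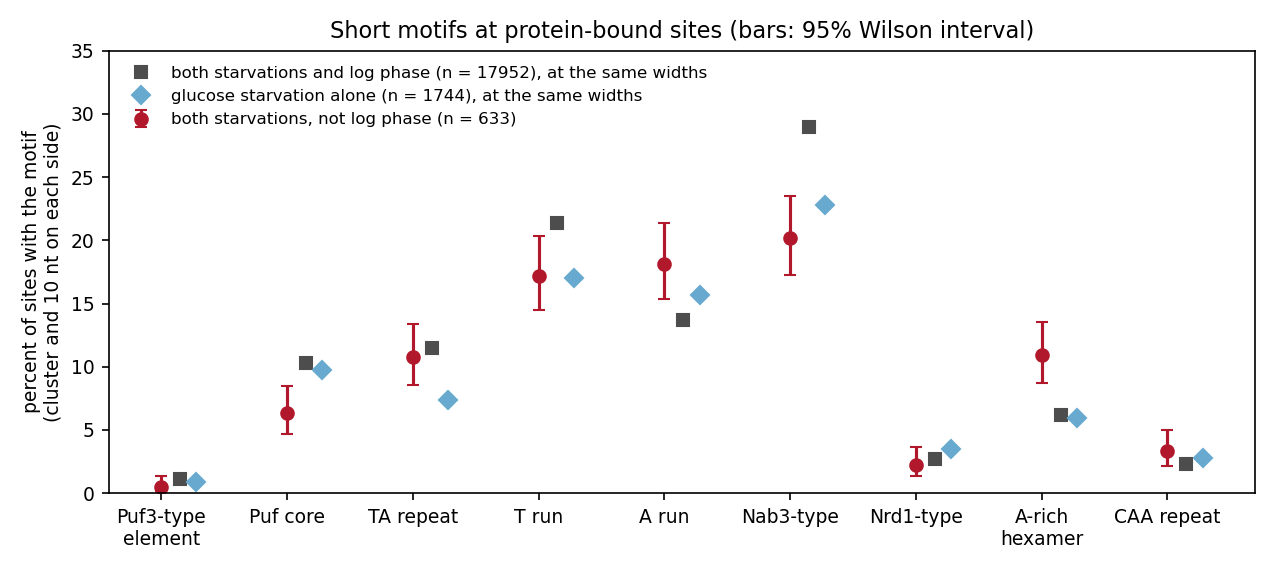
Percent of sites that hold each motif within the cluster and 10 nt on each side (y axis); red points are the 633 sites with 95% Wilson intervals, grey squares the 17952 retained sites and blue diamonds the 1744 clusters of glucose starvation alone, both weighted to the widths of the 633 sites. From left to right stand the Puf3-type element and the Puf core, then the TA repeat, the runs of T and of A, the Nab3-type and Nrd1-type cores, the A-rich hexamer and the CAA repeat; the hexamer stands at 10.9% against 6.16% and 5.94%, and the Nab3-type motif at 20.2% against 29.0% and 22.8%.

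The sites in mRNAs and their flanks fell in 359 of 5913 mRNA genes, 6.07%. One site was found in 341 of these genes, 2 sites in 16 and 3 sites in ASG1 and HOM6. The genes were longer than usual, with a median of 1374 nt against 1185 nt over all mRNA genes, and 4.30% of genes up to 705 nt held a site against 7.99% of those over 1863 nt. Of these genes 94.4% held a log-phase polyA cluster at other places. The same share over all mRNA genes is not given here, so this value is a description. Per gene the median was 6 clusters in log phase, 5 in glucose starvation, 5 in nitrogen starvation and 4 in light total RNA, against 6, 3, 4 and 4 over all mRNA genes. The choice itself requires a glucose cluster that overlaps a nitrogen cluster, which 4778 of the 5913 mRNA genes held. The medians of the starvation lists are therefore given as a description.

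ASG1, a zinc cluster protein thought to regulate transcription, held 14 log-phase, 5 glucose, 15 nitrogen and 13 light total RNA clusters. Its 3 sites began 257, 2487 and 2518 nt from the start of the coding sequence, and thus made up most of its glucose clusters; the nearest log-phase polyA clusters were 67, 21 and 23 nt away. HOM6, homoserine dehydrogenase of threonine and methionine synthesis, held 13, 17, 14 and 19 clusters in the same order. Its 3 sites began 186, 217 and 228 nt into the coding sequence, and the last 2 overlapped 1 and the same nitrogen cluster. In HOM6 the sites lay near one end of a gap between log-phase polyA clusters and shared 2 to 6 nt between starvations.

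CPS1, the vacuolar carboxypeptidase S that frees amino acids from peptides, held 6 log-phase, 6 glucose, 22 nitrogen and 19 light total RNA clusters. Its coding site had identical ends in both starvations and lay 158 nt from the nearest log-phase polyA cluster, and its second site began 42 nt after the stop codon and shared 4 nt. SIP4, a zinc cluster activator of gluconeogenic genes under the Snf1 kinase, held 5, 13, 4 and 2 clusters. Its sites began 552 and 2343 nt into the coding sequence, sharing 11 nt and 1 nt between starvations. Glucose clusters were most numerous on SIP4, and nitrogen clusters on CPS1.

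**Figure D4:**
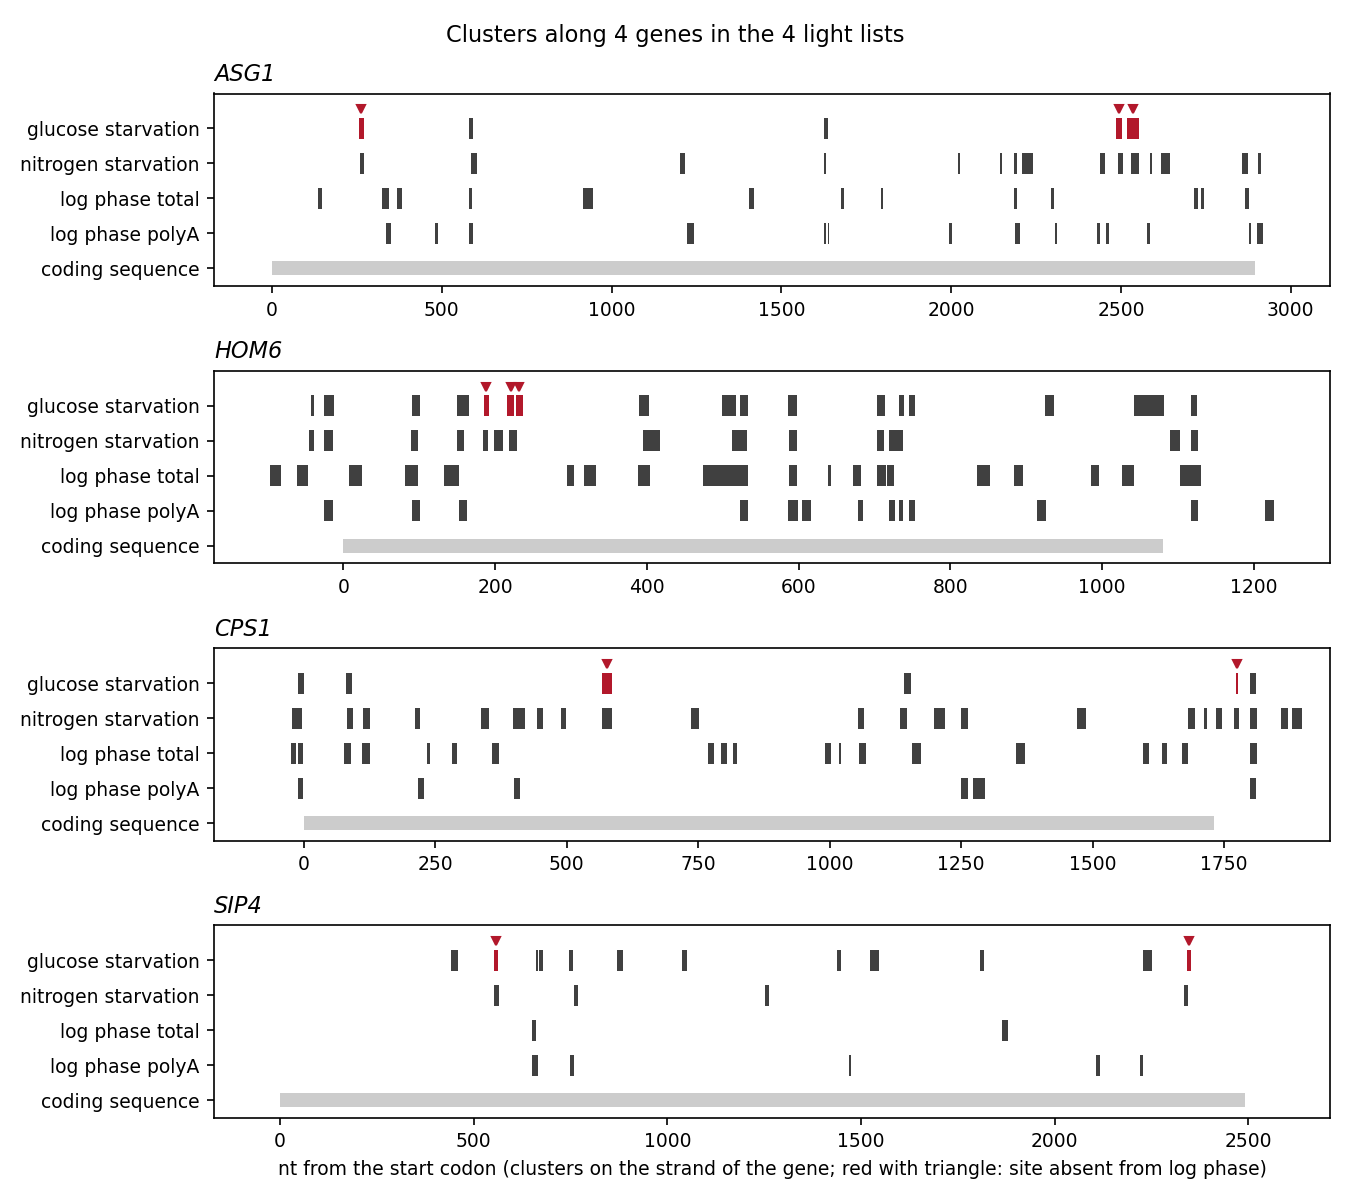
Clusters of the 4 light lists along ASG1, HOM6, CPS1 and SIP4 (x axis, nt from the start codon; each row of bars is 1 list and the pale bar the coding sequence); red bars with triangles are the sites absent from log phase. The first ASG1 site lies before the first log-phase polyA cluster of the gene and its other sites lie between such clusters, as do those of HOM6, and CPS1 shows 22 nitrogen clusters against 6 in log phase.

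Other genes with 2 sites included regulators and membrane proteins. PDR1, the zinc cluster activator of drug resistance, held 7 log-phase, 4 glucose, 7 nitrogen and 5 light total RNA clusters, and its sites began 1015 and 3027 nt into the coding sequence. RGT2, the plasma membrane sensor of high glucose, held 8, 5, 9 and 6 clusters, with 1 site near the end of the coding sequence, where the clusters of both starvations had the same ends over 10 nt, and 1 site 135 nt after the stop codon. ADY3, needed for the prospore membrane, held 8, 5, 14 and 8 clusters and AIM6, named for altered inheritance of mitochondria, held 3, 4, 7 and 4. FIT2, a cell wall mannoprotein that retains iron siderophores, held 5, 9, 7 and 1. The remaining genes with 2 sites among the 25 ranked highest were VPS52, of the GARP tethering complex, UBR2, a ubiquitin ligase, PIB1, a ubiquitin ligase of endosomes, SIR4, a silencing protein, NUP1, a nuclear pore protein, UTP10, of the small-subunit processome, HFA1, the mitochondrial acetyl-CoA carboxylase, and the uncharacterised YGR017W and YLR419W. Among these, the sites of YLR419W lay 965 and 1067 nt from log-phase polyA clusters and those of HFA1 595 and 1541 nt, whereas those of YGR017W lay 20 and 33 nt away.

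In 20 of the 359 genes the log-phase polyA list had no cluster at all, and in 13 of them light total RNA had none either. How common such genes are among all mRNA genes is not given here, so the counts are a description. RGI2, a protein of respiratory growth, held 0 log-phase, 4 glucose, 1 nitrogen and 1 light total RNA clusters, and its site began 67 nt after the stop codon. NDE2, an external NADH dehydrogenase of mitochondria, held 0, 3, 1 and 7, and MOH1 0, 1, 4 and 1. PEX18, which carries thiolase import into peroxisomes, held 0, 2, 2 and 0, and its 3′ flank site lay 1067 nt from the nearest log-phase polyA cluster on its strand. Each of the 20 genes held 0 to 4 clusters in each starvation. STL1, the glycerol symporter, had 0, 1, 1 and 1, RNR3, the damage-induced ribonucleotide reductase subunit, 0, 1, 2 and 0, and SPO20, a SNARE of sporulation, 0, 1, 1 and 0. The sites of DSF1 and of the enolase-related genes ERR1 and ERR2 have exact copies elsewhere in the genome, so their reads cannot be placed with certainty. PAU4 and PAU15, of the seripauperin family, were also among the 20, and their sites had no exact copy.

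**Figure D5:**
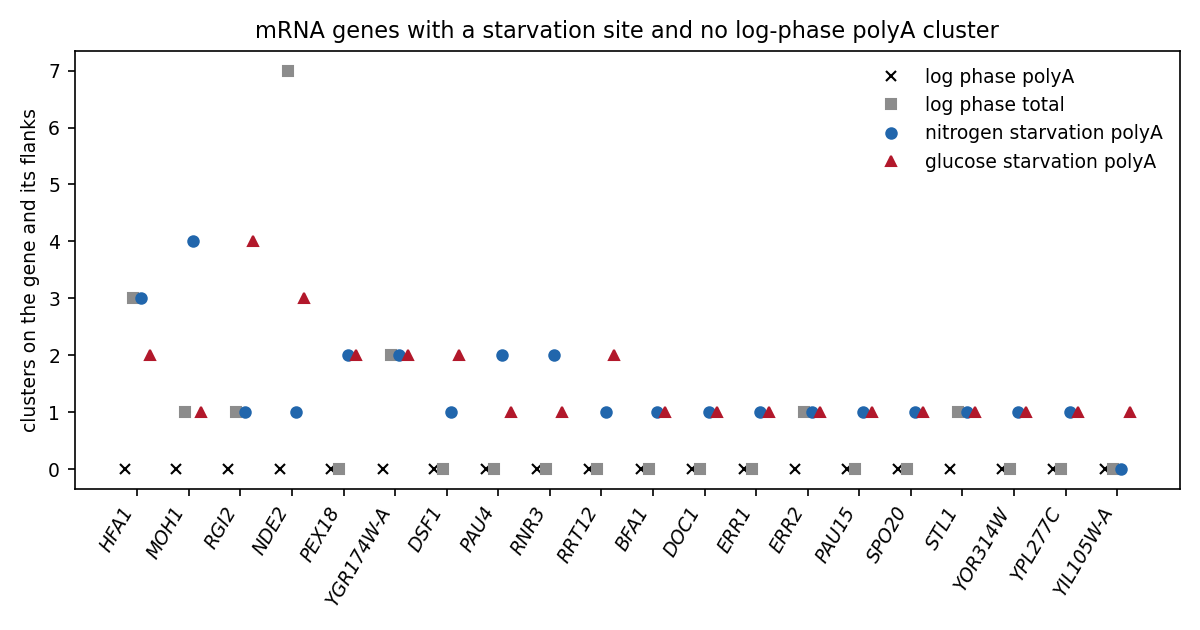
Number of clusters assigned to the gene and its flanks (y axis) in 4 lists, for the 20 mRNA genes (x axis) that held a site of both starvations and no log-phase polyA cluster; each symbol is 1 pooled list. NDE2 has 7 clusters in light total RNA, MOH1 has 4 in nitrogen starvation and RGI2 4 in glucose starvation; YIL105W-A shows 0 in nitrogen starvation because the overlapping cluster was assigned outside its flank.

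Gene lists are given as counts beside the 6.07% of all mRNA genes and the 3.00% of both-starvation sites, with no test. The 3.00% is not a matched background, because listed sites lie in mRNAs and their flanks. It also covers intergenic, antisense and mitochondrial sites, with rates of 3.82%, 5.42% and 11.8%. In mRNAs the rate was 3.47% in coding sequence, 1.94% in 5′ flanks and 1.32% in 3′ flanks, and their pooled rate is not given here. Of the 14 genes of gluconeogenesis and the glyoxylate cycle 3 held sites, SIP4, CAT8 and PCK1, with 4 of 36 both-starvation sites, 11.1% (4.41 to 25.3). CAT8, the other zinc cluster activator of these genes, held 3 log-phase, 5 glucose, 2 nitrogen and 8 light total RNA clusters, and its site lay 729 nt from the nearest log-phase polyA cluster. PCK1, phosphoenolpyruvate carboxykinase, held 2, 4, 4 and 4, with its site ending 10 nt before the start codon. Both the CAT8 and the PCK1 site shared few bases between starvations, 2 nt and 3 nt. Of the SIP4 sites, 1 shared 1 nt and the other 11 nt. The interval for this list is wide, its low end of 4.41% is near the 3.00%, and it covers counting error only. Gene lists were chosen with earlier results of these data known, so no interval here serves as a test of a list.

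Of 46 genes of meiosis and sporulation 6 held 1 site each, and these were 6 of 45 both-starvation sites, 13.3% (6.26 to 26.2). They were HFM1, a meiotic helicase, UME6, the regulator of early meiotic genes, HOP1, of the chromosome axis, SPO11, which makes meiotic breaks, SPO14, phospholipase D, and SPO20. HFM1 held 4 log-phase, 7 glucose, 3 nitrogen and 1 light total RNA clusters, and HOP1 held 2, 3, 2 and 0. Their distances from log-phase polyA clusters ranged from 91 nt in HFM1 to 1418 nt in SPO20.

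Of 21 genes of the TCA cycle 5 held sites, with 5 of 90 both-starvation sites, 5.56% (2.40 to 12.4), among them PDB1 of pyruvate dehydrogenase, PYC1, pyruvate carboxylase, IDH2 of isocitrate dehydrogenase and the mitochondrial citrate synthase paralogue CIT3. Of 45 genes of peroxisomes and fatty acid oxidation 5 held sites, with 5 of 91, 5.49% (2.37 to 12.2). One was POT1, the thiolase of β-oxidation, with 1 log-phase, 7 glucose, 3 nitrogen and 2 light total RNA clusters and its site 93 nt after the stop codon. Others were DCI1, PEX11, PEX15 and PEX18. Both intervals include the background of 3.00%.

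Ribosome biogenesis was represented by 12 of 97 genes and 13 of 285 sites, 4.56% (2.68 to 7.65), among them UTP10 and UTP4 of the small-subunit processome and the helicase DBP2. Amino acid synthesis had 8 of 75 genes and 10 of 308 sites, among them HOM6, ILV6, the regulatory subunit of acetolactate synthase, CYS3, cystathionine γ-lyase, and ARO4, the first enzyme of aromatic synthesis. The site shares of mRNA decay, mitochondrial ribosomal proteins, TOR and PKA signalling, the nuclear-encoded respiratory chain, autophagy and hexose transport lay between 2.80% and 4.03%. Autophagy genes with sites were CPS1, APE1 and ATG36, the receptor for peroxisome turnover, and those of hexose sensing were RGT2 and STD1, which control hexose transporter genes. Signalling genes with sites included TOR2, a kinase of the TOR complexes, whose site lay 6326 nt from the nearest log-phase polyA cluster and 483 nt from the nearest light total RNA cluster, and IRA1, a Ras inhibitor. For these lists the interval of the site share included 3.00%. The share of genes with a site was above the 6.07% of all mRNA genes in each of them. It was 12.4% in ribosome biogenesis, 11.4% in mRNA decay, 10.7% in amino acid synthesis and 10% in the respiratory chain. In TOR and PKA signalling it was 9.30%, in autophagy 7.69%, in mitochondrial ribosomal proteins 7.46% and in hexose transport 7.14%. The difference of these gene shares from 6.07% was not tested.

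Cytosolic ribosomal proteins had 4 of 769 both-starvation sites, 0.520% (0.202 to 1.33), in RPL31B, RPL2B, RPS9A and RPS17B. A gene covered by many log-phase clusters leaves less room for a site at least 20 nt from all of them. This room was not counted per gene list, and its part in the share of any list, low or high, was not tested. Glycolysis had 1 of 207, in the 5′ flank of TDH3, glyceraldehyde-3-phosphate dehydrogenase, a gene with 22 log-phase, 26 glucose, 24 nitrogen and 35 light total RNA clusters. The list of heat shock and stress had 1 of 164 (0.108 to 3.37%), in SOD2, the mitochondrial superoxide dismutase, and cell wall genes 2 of 244, in CCW12 and FLO5, a flocculin with repeated sequence. RNA-binding regulators had 1 of 116 (0.152 to 4.72%), in SLF1, a La-related protein, and cell cycle regulators 1 of 81 (0.218 to 6.67%), in FKH2, a forkhead factor. The intervals of these last 2 lists and of heat shock include the background of 3.00%. No site fell among 92 both-starvation sites of nitrogen catabolite repression genes, 126 of the proteasome, 213 of translation factors or 68 of trehalose and glycogen genes, which by the limit of 3 counts, not a Wilson interval, allows shares of up to 3.26%, 2.38%, 1.41% and 4.41%.

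Of the 70 sites at least 500 nt from every log-phase polyA and light total RNA cluster, 31 were intergenic, 13 coding, 10 antisense, 8 in 3′ flanks, 6 mitochondrial and 2 in 5′ flanks. Of the 167 intergenic sites 95 lay over 500 nt from the nearest gene on their strand, 45 lay within 500 nt upstream of one and 27 within 500 nt downstream. The intergenic site with the longest shared stretch, 17 nt, lay 843 nt from log-phase polyA clusters.
Intergenic, chrVII:780298-780319, minus strand: aCTACTTAATACACAATTtatt

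The 39 antisense sites lay opposite 38 genes, with 2 opposite the uncharacterised YER158C. In 22 of them no log-phase polyA cluster lay within 200 nt, and in 20 light total RNA had none either. The genes CAT8, SIP4, SWI1, a subunit of the SWI/SNF remodeller, and YGR237C held sites on both strands. The antisense site of CAT8, printed above, lay 784 nt from log-phase polyA clusters and that of SIP4 373 nt. Within 200 nt of each of these 2 sites the glucose list had 1 cluster, the site itself, and the log-phase polyA list 0.

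The mitochondrial genome gave 44 sites, 35 on the plus strand and 9 on the minus strand. Its clusters numbered 472 in log-phase polyA RNA, 534 in glucose starvation, 708 in nitrogen starvation and 578 in light total RNA. Both starvation lists thus held more than the log-phase polyA list although they were smaller overall. The glucose list held fewer than light total RNA, which is also log-phase RNA. Annotated genes held 14 of the 44 sites and 30 lay outside them. Inside introns of COB, cytochrome b, lay 9 sites, and 7 of them lay in stretches that also encode the maturases BI2, BI3 or BI4. Others lay in COX1, VAR1, the gene for the mitochondrial ribosomal protein, the 21S rRNA and RPM1, the RNA of mitochondrial RNase P. The minus strand held 61 log-phase, 74 glucose, 96 nitrogen and 9 light total RNA clusters; all 9 minus-strand sites were outside annotated genes. Mitochondrial mRNAs of yeast carry no poly(A) tail, and how these RNAs passed oligo(dT) selection was not tested.

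The 4 sites in structural RNAs or pseudogenes included 3 in the first internal transcribed spacer of the ribosomal RNA precursor, which is cut out and degraded during ribosome synthesis. The spacer is repeated, and each of the 3 sites has 1 exact copy elsewhere in the genome. Across all 633 sites, 17 had an exact copy of the cluster with 10 nt on each side elsewhere in the genome, and in 6 of these a copy overlapped a log-phase polyA or light total RNA cluster, so absence in log phase is uncertain for them. Per chromosome the share of both-starvation sites absent in log phase ranged from 1.94% on chromosome XII to 4.84% (3.43 to 6.79) on chromosome IX among nuclear chromosomes.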

How the data were processed

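The data were 10 gPAR-CLIP libraries in 5 groups of 2, and only cluster lists were used. The authors deposited 1 list per group with start, end and strand, and per the labels both replicates of a group share it. Reads were aligned with Bowtie 0.12.7 to build R64, per the submitters' processing notes; no nuclease, cluster caller or threshold was given in the sources used here. In the deposited lists the score column is 0 or missing, so no depth is known. Intervals count from 0 with an open end, judged from the bases at their edges, and are printed from 1.

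Sites and gene lists were chosen with earlier results of these data known. Distance is the difference of the nearest ends. Clusters were assigned on their strand to RefSeq genes of R64: bodies, then 100 nt upstream and 150 nt downstream of mRNA coding sequence, then antisense, then intergenic. Gene ends are those of the coding sequence, so flanks are not mapped UTRs. Named genes were the first 25 by number of sites, up to 4 per gene list and up to 10 of other classes. Of 22 gene lists 20 were written by hand, and ribosomal proteins were taken by symbol. Scripts ran in Python 3.11.15 with SciPy 1.17.1, and membership was tested on simulated clusters. Alternatives covered distance, overlap, strand, width, flanks and repeated sequence. The values of 1 gene with a site are not reported here.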

Additional observations from a re-analysis of the deposited data

How the results depend on the processing

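Across 14 alternative settings, 42 of 68 values stayed close to those reported and 26 moved. The number of sites moved most, from 633 to 2178, 421 and 273 at distances of at least 1, 50 and 100 nt, 1070 when absent from the log-phase polyA list alone, 343 with clusters of at least 10 nt and 28 with identical ends. The number of genes moved likewise, from 359 to 1236, 226, 129, 600, 202 and 22. The 3′ flank share moved to 16.9%, 8.31% and 7.69% at those distances, 7.14% with identical ends, 7.19% with log-phase clusters on either strand and 6.79% with flanks of 50 and 75 nt. The 5′ flank share moved to 2.61% and 2.56% at 50 and 100 nt, 2.05% with flanks of 50 and 75 nt and 6.48% with wider flanks. The coding share moved to 38.5% at 100 nt, 67.9% with identical ends, 49.6% against the log-phase polyA list alone and 52.9% with either strand. Flank shares follow from the flank width by construction; the cause of the other changes was not tested. With nitrogen starvation as the base there were 643 sites in 370 genes. Settings added after seeing the data gave 614 sites with the nitrogen cluster also 20 nt away, 616 with unique sequence and 589 in the nuclear genome. No paired analysis was possible because each list pools both replicates. Replicates could not be left out for the same reason, and the lists hold no depth.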
